A study of Homo sapiens with 4 samples.

Results

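The genes described here are 41 genes of protein folding and quality control in the endoplasmic reticulum (ER) and of the unfolded protein response, out of 18132 genes that could be named on the array. They were taken from a list of symbols. Each gene was represented by its brightest probe set, by the mean over the 4 arrays, among probe sets paired with that gene alone. Of the 41 genes, 39 had such a probe set. SEC61G had none, and the 2 probe sets of the thiol oxidoreductase gene TXNDC5 are also paired with a read-through gene, so neither gene has a value here. Expression in a line was called where this probe set was no dimmer than the median probe set on the control or the BORIS siRNA array of the line, or on both. By this filter 38 of the 41 genes were expressed in Caco-2 and 38 in HCT116, and ERN1, at background on all 4 arrays, was not.

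Proteins that enter the secretory pathway pass through the SEC61 channel into the ER, where Hsp70 and Hsp90 chaperones, lectin chaperones and protein disulfide isomerases fold them. Chains that fail to fold are recognised, moved back to the cytosol and degraded by the proteasome, a route called ER-associated degradation. When unfolded protein builds up, the sensors IRE1 (ERN1), PERK (EIF2AK3) and ATF6 start the unfolded protein response: IRE1 splices the XBP1 mRNA, ATF6 is cut to release a transcription factor, and PERK slows translation and favours ATF4 and its target DDIT3, also called CHOP. In the gut these genes are known above all for their part in secretory cells, which depend on XBP1.

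The samples were Caco-2 and HCT116 cells, both established human colorectal cancer lines, transfected for 3 days, with Lipofectamine RNAiMAX, either with siRNA against BORIS or with a negative control siRNA. The gene of BORIS is CTCFL, related to that of the insulator protein CTCF. Total RNA of each of the 4 groups was hybridised to 1 Affymetrix PrimeView array, a 3' expression array, so a group is 1 array, and nothing in the labels describes repeat transfections. All values are log2 values of a probe set, and differences between siRNAs are BORIS siRNA minus control siRNA within a line.

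The array medians lay between 5.46 and 5.48. Background was set from olfactory receptor genes, at their 95th percentile, 4.82 to 5.18 by array. All 9 epithelial markers, among them EPCAM and KRT8, were above background on all 4 arrays. Of the intestinal markers VIL1 and LGALS4 were above background in Caco-2 only and CDX2 in both lines, while CDX1, CDH17, GPA33 and ISX were at background throughout, as were 7 of the 9 enterocyte markers. Of the secretory lineage markers, AGR2, AGR3 and REG4 were above background in Caco-2 and at background in HCT116, SPDEF was above it on all 4 arrays, SPINK4 on both HCT116 arrays and on the Caco-2 array with BORIS siRNA, TFF3 on the latter alone, and the other 5, MUC2 and ATOH1 among them, on none. All 6 fibroblast markers and 4 of 5 blood cell markers with a value were at background. The endothelial markers PECAM1 and CDH5 and the neuronal marker ELAVL4 were at background too, while VWF, KDR and TIE1, SNAP25, RBFOX3 and TUBB3 were above it on all 4 arrays and SYT1 in HCT116 only. Of the 5 plasma cell markers, which mark another ER-rich cell type, MZB1 and TNFRSF17 were at background and JCHAIN and CD79A above it on all 4 arrays. POU2AF1 was above it on the Caco-2 control array alone, at 5.40. Some markers above background lay close to it, such as JCHAIN at 5.40 to 5.67, RBFOX3 at 5.08 to 5.79 and KDR at 5.36 to 5.42. KDR did not pass the expression filter. The 12 poly-A spike-in probe sets differed by a mean of 0.89 between the HCT116 arrays, higher with BORIS siRNA, and by -0.05 between the Caco-2 arrays. They also differed between the lines, with means of 6.91 and 6.86 in Caco-2 and 7.73 and 8.62 in HCT116, control array first. The 3' minus 5' difference of the ACTB control probe sets, a sign of RNA integrity, was 1.05 and 0.97 in Caco-2 and 1.34 and 1.47 in HCT116, control array first. That of the GAPDH control probe sets was close to 0 on all 4 arrays, at 0.026 and -0.0048 in Caco-2 and 0.041 and 0.027 in HCT116. The part of these differences in the HCT116 results and in the comparison of the lines below was not tested.

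A feature of some of these genes is the ER stress response element, which is bound by ATF6 together with the CCAAT-binding factor NF-Y. Promoters were not read to list the genes. The genes were listed for the unfolded protein response that this element serves, so its presence among them is no independent result. Promoter windows of 300 bases, from 250 before to 50 after each transcription start in RefSeq's table for build GRCh38.p14, were found for 37 of the 41 genes. The element, CCAAT, 9 bases of any kind and then CCACG on either strand, was present in 27 of 35116 windows (0.0769%). These windows belonged to 25 gene symbols, and 7 of them were among the genes described here: HSPA5, HSP90B1, CRELD2, CALR, CANX, PDIA6 and XBP1. The related element ERSE-II, ATTGG, 1 base of any kind and then CCACG on either strand, was present in 19 windows (0.0541%), of which 3 belonged to HYOU1, SDF2L1 and HERPUD1. A match describes the letters of a window and is no measurement of binding. The elements are shown with 8 bases on each side, oriented so that CCAAT or ATTGG comes first, with the element in capitals, because they mark the genes that share this feature.

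HSPA5, chr9:125241383-125241417, minus strand: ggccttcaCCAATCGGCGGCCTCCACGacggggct
HSP90B1, chr12:103930208-103930242, plus strand: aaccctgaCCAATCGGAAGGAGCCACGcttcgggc
HSP90B1, chr12:103930313-103930347, minus strand: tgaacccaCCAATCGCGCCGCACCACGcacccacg
CRELD2, chr22:49918546-49918580, minus strand: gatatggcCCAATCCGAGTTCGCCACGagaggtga
CALR, chr19:12938376-12938410, minus strand: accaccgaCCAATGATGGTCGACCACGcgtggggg
CANX, chr5:179698770-179698804, plus strand: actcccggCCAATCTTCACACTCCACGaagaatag
PDIA6, chr2:10812845-10812879, minus strand: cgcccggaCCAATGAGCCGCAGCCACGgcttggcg
XBP1, chr22:28800595-28800629, minus strand: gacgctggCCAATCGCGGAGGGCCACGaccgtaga
HYOU1, chr11:119057372-119057398, plus strand: ggcctgggATTGGACCACGtcacgggg
HYOU1, chr11:119057266-119057292, plus strand: gcgtactcATTGGACCACGtcccaggc
HERPUD1, chr16:56932017-56932043, plus strand: ggacgccgATTGGGCCACGttgggaga
SDF2L1, chr22:21642106-21642132, minus strand: gggttttgATTGGTCCACGcttccgag

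HSP90B1 held 2 elements in opposite orientation, and HYOU1 held ERSE-II at 2 places. The CANX element lay in 3 of the 4 windows listed for its alternative starts. The XBP1-type element TGACGTGG, in 0.729% of windows, was found in HYOU1, TXNDC5 and TXNDC11. TGATGCAA, a form of the element bound by ATF4 and CHOP dimers that 0.866% of windows held, was found in HERPUD1. For the 10 genes with ERSE or ERSE-II, the differences between siRNAs ran from -0.10 to 0.16 in Caco-2 (median 0.075) and from -0.32 to 0.23 in HCT116 (median 0.011). None of the 10 reached 1.5-fold in either line, beside 3.92% of all expressed genes in Caco-2 and 13.5% in HCT116. With only 10 genes, none is near these shares. For the 24 expressed genes with a promoter window and neither element, the medians were 0.067 and -0.12.

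**Figure D1:**
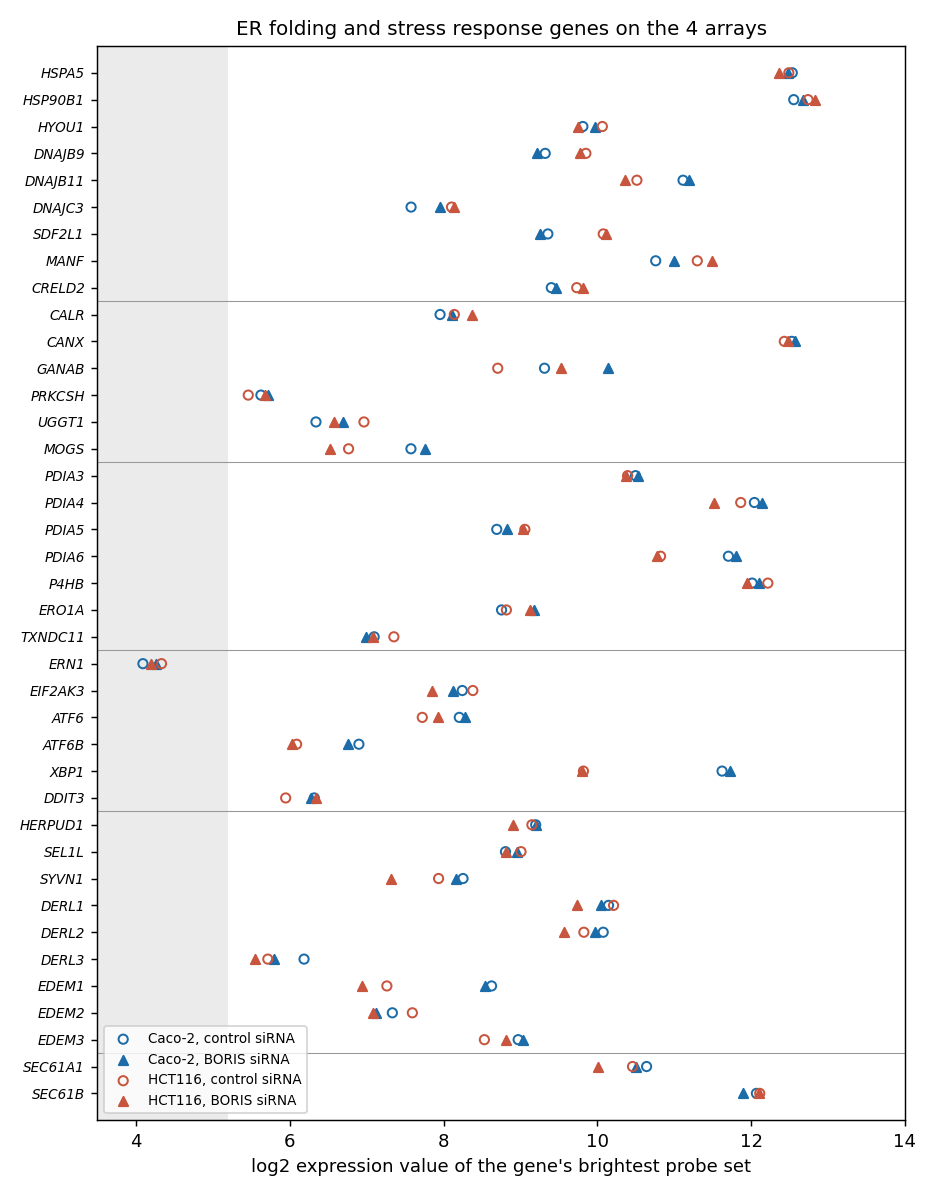
The log2 value (x axis) of the brightest probe set of each of the 39 genes with a value (rows, grouped by role, with lines between roles) on the 4 arrays, circles for control siRNA and triangles for BORIS siRNA, blue for Caco-2 and red for HCT116; the grey area is background, up to its highest value on any array, 5.18. For most genes the 4 symbols lie close together, while XBP1 and EDEM1 separate by line and GANAB by siRNA within each line. Positions of different genes are not to be compared, since probe sets bind with different strength.

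CTCFL, the gene of the targeted BORIS, has 7 probe sets on the array, and 6 of them were at background on all 4 arrays. The brightest read 5.07 with control and 5.09 with BORIS siRNA in Caco-2, and 5.07 and 4.93 in HCT116. In Caco-2 it lay above the background of its arrays, 5.06 and 4.82, and was no lower with BORIS siRNA, and in HCT116 it was at background, so these arrays do not show a knockdown. The comparison of BORIS siRNA with control siRNA asked which of these genes changed when BORIS was targeted. GANAB, the catalytic subunit of glucosidase II, was the only 1 of the 38 expressed genes at 1.5-fold or more in Caco-2, and 1 of 2 in HCT116, where the other was SYVN1, the E3 ubiquitin ligase of ER-associated degradation also known as HRD1. GANAB was higher with BORIS siRNA and SYVN1 lower. No gene of the 38 reached 2-fold in either line. Among all expressed genes, 3.92% reached 1.5-fold in Caco-2 (2.78% higher, 1.14% lower) and 13.5% in HCT116 (4.36% higher, 9.18% lower), and 0.452% (0.404% higher, 0.0481% lower) and 2.03% (0.583% higher, 1.45% lower) reached 2-fold. The 1 and 2 genes here are 2.63% and 5.26% of 38. Within a line each difference comes from 2 arrays and therefore carries neither a replicate check nor a p-value. In such bulk RNA fewer cells with a transcript cannot be told apart from less transcript per cell.

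Most differences were small. In Caco-2, 33 of the 38 genes lay within 0.25 of 0, where 70.9% of all expressed genes did, and in HCT116 21 of 38, where 49.9% did. In Caco-2, 23 genes were higher and 15 lower, with a median of 0.060, beside 50.5% higher, 49.4% lower and a median of 0.0026 for all expressed genes. In HCT116, 13 were higher and 25 lower, with a median of -0.068, beside -0.048 for all expressed genes. The share lower in HCT116, 65.8%, stands beside 55.4% of all expressed genes there, of which 44.5% were higher. Of the 38 genes, 11 were higher in both lines, 13 lower in both and 14 of opposite sign (28.9%, 34.2% and 36.8%), beside 24.4%, 29.8% and 45.6% of the 9855 genes expressed in both lines. Just inside 1.5-fold, a log2 difference of 0.58, lay SYVN1 in HCT116 at -0.62, and just outside it EIF2AK3 in HCT116 at -0.53 and, in Caco-2, ERO1A at 0.42. The split of all genes at 1.5-fold in HCT116 was 464 higher and 976 lower as deposited and 603 and 804 after quantile normalization.

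**Figure D2:**
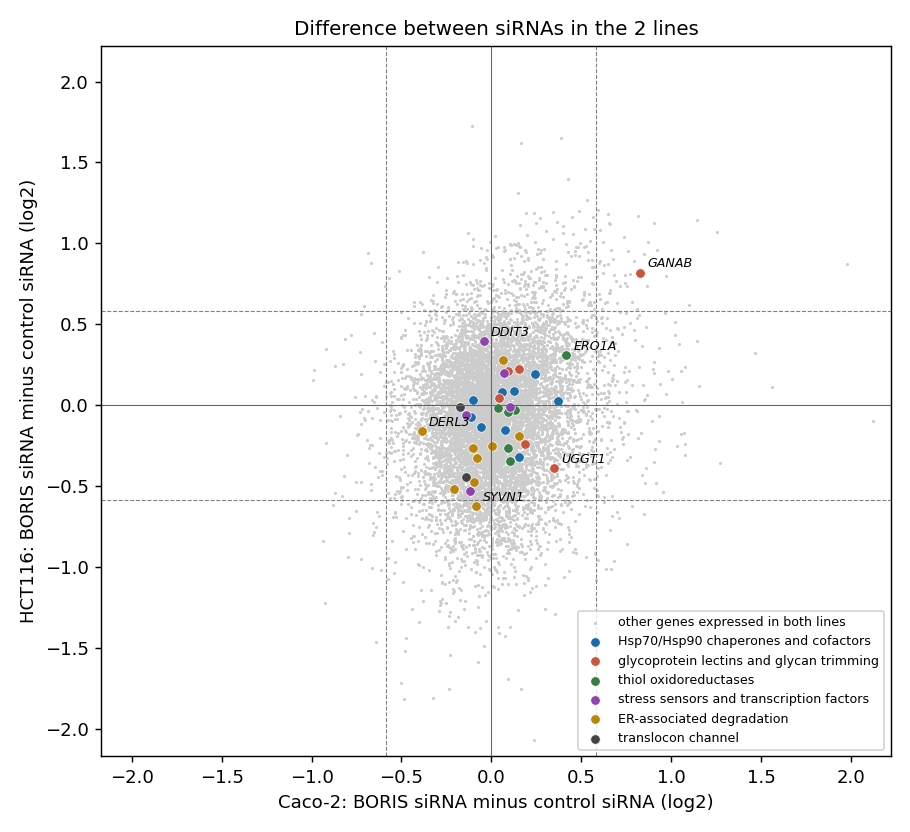
The difference between BORIS and control siRNA in Caco-2 (x axis) and in HCT116 (y axis), in log2 units, for the 38 genes (coloured by role) over the 9855 genes expressed in both lines (grey); dashed lines mark 1.5-fold. GANAB, at 0.83 and 0.82, is alone among the coloured points outside the dashed lines on both axes, and SYVN1 at -0.09 and -0.62 lies below the lower line.

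Glucosidase II trims glucose from N-glycans so that calnexin and calreticulin can bind and release folding glycoproteins. GANAB, its catalytic subunit, read 9.31 with control and 10.14 with BORIS siRNA in Caco-2, and 8.70 and 9.52 in HCT116. The array with BORIS siRNA was higher in each line, by 0.83 in Caco-2 cells and 0.82 in HCT116, or 1.78-fold and 1.76-fold. In the order of differences, GANAB was the 86th highest of 10389 expressed genes in Caco-2 and the 171st of 10631 in HCT116. All 5 probe sets of GANAB were bright, meaning at or above the array median, and all were higher with BORIS siRNA, by 0.83 to 0.86 in Caco-2 and 0.54 to 0.83 in HCT116. Probe sets of a gene can share probes and come from the same array, so they are no replicates. GANAB was 1 of 47 genes higher at 1.5-fold in both lines, of 9855 expressed in both.

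Whether the lines shared a difference was tested in limma over the 4 arrays, with cell line as a block, where the disagreement between the lines is the error. For GANAB the fitted difference was 0.82 ± 0.16 (SE) with a limma adjusted p of 0.769 and an unadjusted p of 0.00192. It was the only 1 of the 38 genes with an unadjusted p under 0.05, and 0 of the 38 and 0 of all 11165 tested genes passed an adjusted p of 0.05 (0%), while 670 genes (6%) had an unadjusted p under 0.05. After quantile normalization the limma adjusted p of GANAB was 0.009 and 106 genes were called (0.949%), and after a loess correction on mean expression it was 0.0247 with 57 genes called (0.511%). Over the other 6 settings it ran from 0.388 to 0.867. The direction was higher in both lines in all 9 settings, but several of these share the same GANAB values. The differences are identical as deposited, without _x_at and _s_at probe sets, with no filter, with a filter at background and without the trend. The 1 residual degree of freedom limits this test, which borrows an error estimate from all genes, weighted by prior degrees of freedom. These were 5.49 as deposited, 651 after quantile normalization and 55.7 after the loess correction. The fitted difference of GANAB in these settings was 0.82, 0.83 and 0.84, with SE 0.16, 0.19 and 0.19. After these 2 corrections the difference was smaller relative to its SE, yet the unadjusted limma p was 2.10e-05 and 6.19e-05. These smaller p-values therefore reflect the larger prior degrees of freedom and no clearer difference of GANAB. Why the prior degrees of freedom rose was not tested.

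The 250 bases upstream of the GANAB start (chr11:62646614-62646863, minus strand in GRCh38.p14, from RefSeq's table) are shown with CCAAT and CCACG on either strand in capitals, to set this promoter beside that of HSPA5, the main Hsp70 chaperone of the ER and a standard readout of the unfolded protein response. The stretch held CCAAT at 2 places and CCACG at 1, read on the opposite strand as CGTGG, and no complete ER stress response element. CCAAT alone was in 34.6% and CCACG alone in 38.1% of all windows, which are 300 bases long. In the HSPA5 stretch (chr9:125241344-125241593, minus strand) the capitals mark the complete element only. That stretch held CCAAT at 4 places and CCACG at 1, counting those within the element.
GANAB: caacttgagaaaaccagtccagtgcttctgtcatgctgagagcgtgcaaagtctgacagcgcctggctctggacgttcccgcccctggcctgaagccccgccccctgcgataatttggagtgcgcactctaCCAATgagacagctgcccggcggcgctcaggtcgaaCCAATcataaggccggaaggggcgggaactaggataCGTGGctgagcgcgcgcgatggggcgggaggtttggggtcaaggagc
HSPA5: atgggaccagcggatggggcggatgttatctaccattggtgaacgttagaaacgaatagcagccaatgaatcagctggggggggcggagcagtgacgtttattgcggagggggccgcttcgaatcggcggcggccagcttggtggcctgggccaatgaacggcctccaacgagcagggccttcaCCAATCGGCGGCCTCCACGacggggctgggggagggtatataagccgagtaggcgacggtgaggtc

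The other genes of the lectin cycle differed less. All 6 genes of this group were higher in Caco-2 (median 0.17) and 4 of 6 in HCT116 (median 0.13). PRKCSH passed the expression filter in HCT116 only through the array with BORIS siRNA, where it was the higher, and without it 3 of 5 were higher there. PRKCSH, the noncatalytic subunit of glucosidase II, differed by 0.09 in Caco-2 cells and 0.21 in HCT116, from 1 probe set that read 5.46 to 5.72. The lectin chaperones calreticulin (CALR) and calnexin (CANX) differed by 0.16 in Caco-2 cells and 0.23 in HCT116 and by 0.04 in Caco-2 cells and 0.04 in HCT116. UGGT1, which puts glucose back on glycoproteins that are not yet folded, read 6.34 with control and 6.69 with BORIS siRNA in Caco-2, and 6.97 and 6.58 in HCT116. Its differences, 0.35 in Caco-2 cells and -0.39 in HCT116, had opposite signs, and in HCT116 its 3 bright probe sets disagreed, at -0.39 to 0.43. MOGS, glucosidase I, which removes the outermost glucose, differed by 0.19 in Caco-2 cells and -0.24 in HCT116.

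Among the Hsp70 and Hsp90 chaperones and their cofactors, 6 of the 9 genes were higher with BORIS siRNA in Caco-2 and 5 of 9 in HCT116. HSPA5 read 12.53 with control and 12.48 with BORIS siRNA in Caco-2, and 12.49 and 12.36 in HCT116, and HSP90B1, the Hsp90 of the ER, read 12.55 with control and 12.68 with BORIS siRNA in Caco-2, and 12.74 and 12.82 in HCT116. These are differences of -0.06 and -0.13 for HSPA5 and 0.12 and 0.09 for HSP90B1. All 6 HSPA5 probe sets were lower in HCT116, at -0.65 to -0.13, while 3 of 6 were lower in Caco-2. All 7 HSP90B1 probe sets were higher in both lines, at 0.10 to 0.27 in Caco-2 and 0.07 to 0.36 in HCT116.

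Among the cofactors, the stress-induced Hsp70 relative HYOU1 had values of opposite sign, 0.15 in Caco-2 cells and -0.32 in HCT116, and its 9 bright probe sets repeated this, with 9 of 9 higher in Caco-2 and 8 of 9 lower in HCT116. DNAJC3, a J-domain cochaperone of HSPA5 known as p58IPK, read 7.58 with control and 7.95 with BORIS siRNA in Caco-2, and 8.10 and 8.13 in HCT116. Its difference was 0.37 in Caco-2 and 0.03 in HCT116, and its other probe set that was bright on all 4 arrays gave 0.36 and 0.22. MANF, a secreted stress protein, differed by 0.24 in Caco-2 cells and 0.20 in HCT116, and CRELD2, another secreted ER stress protein, by 0.06 in Caco-2 cells and 0.08 in HCT116. The J-domain proteins DNAJB9 and DNAJB11 and the HSPA5 cofactor SDF2L1 lay between -0.16 and 0.07 in both lines.

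In the thiol oxidoreductases, 6 of 7 genes with a value were higher in Caco-2 (median 0.093) and 6 of 7 lower in HCT116 (median -0.040). ERO1A, the oxidase that recharges protein disulfide isomerase and that hypoxia is also known to induce, was the gene higher in both lines. It read 8.75 with control and 9.17 with BORIS siRNA in Caco-2, and 8.82 and 9.13 in HCT116, a difference of 0.42 in Caco-2 cells and 0.31 in HCT116, and both of its bright probe sets were higher in each line. Its fitted shared difference was 0.36 ± 0.17 (SE, limma adjusted p = 0.769). PDIA4 read 12.04 with control and 12.14 with BORIS siRNA in Caco-2, and 11.86 and 11.52 in HCT116, and its 3 probe sets were lower in HCT116, at -0.34 to -0.33. P4HB, the classical protein disulfide isomerase, differed by 0.09 in Caco-2 cells and -0.27 in HCT116, and 6 of 6 probe sets had the sign of these values in each line. PDIA3, PDIA5 and PDIA6 lay between -0.04 and 0.13 in both lines, and the transmembrane oxidoreductase TXNDC11 at -0.11 in Caco-2 cells and -0.27 in HCT116.

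EIF2AK3 (PERK), a stress sensor, had the largest difference of the 5 sensor and transcription factor genes in HCT116, while in Caco-2 ATF6B had. It read 8.24 with control and 8.13 with BORIS siRNA in Caco-2, and 8.38 and 7.85 in HCT116, a difference of -0.12 in Caco-2 cells and -0.53 in HCT116, and its 3 bright probe sets were all lower in HCT116, at -0.61 to -0.35. DDIT3, the transcription factor CHOP downstream of PERK, read 6.32 with control and 6.28 with BORIS siRNA in Caco-2, and 5.95 and 6.34 in HCT116. It was higher in HCT116 by 0.40, and by 0.37 with its other probe set, and differed by -0.04 in Caco-2. ATF6 differed by 0.07 in Caco-2 cells and 0.20 in HCT116, and its paralog ATF6B by -0.14 in Caco-2 cells and -0.06 in HCT116, with 1 of 2 probe sets at 0.40 in HCT116. XBP1 differed by 0.11 in Caco-2 cells and -0.01 in HCT116. It has 1 probe set, which the annotation used here does not assign to the spliced or unspliced mRNA, so splicing was not measured. ERN1 (IRE1) was below background on all 4 arrays, at 4.09 to 4.33, and has no fold.

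The genes of ER-associated degradation lay mostly below 0. In HCT116, 8 of 9 were lower with BORIS siRNA (median -0.26), and in Caco-2 6 of 9 (median -0.086), beside 55.4% and 49.4% of all expressed genes. SYVN1 read 8.25 with control and 8.17 with BORIS siRNA in Caco-2, and 7.94 and 7.31 in HCT116. Its difference was -0.09 in Caco-2 and -0.62 in HCT116, and its dimmer probe set stood at -0.47 and -0.09, the first of these on a pair of arrays where only the control reached the median. In HCT116 the difference of SYVN1 was below 1.5-fold after quantile normalization (-0.55), after the loess correction (-0.57), with 16 added on the linear scale (-0.58) and as the mean of its probe sets (-0.36).

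EDEM2, which acts in the mannose trimming that marks glycoproteins for degradation, read 7.33 with control and 7.13 with BORIS siRNA in Caco-2, and 7.59 and 7.08 in HCT116, a difference of -0.21 in Caco-2 cells and -0.52 in HCT116. DERL1, a derlin of the retrotranslocation machinery, read 10.15 with control and 10.05 with BORIS siRNA in Caco-2, and 10.21 and 9.74 in HCT116, a difference of -0.10 in Caco-2 cells and -0.48 in HCT116. All 3 of its probe sets were lower in both lines, at -0.53 to -0.36 in HCT116. DERL2 differed by -0.10 in Caco-2 cells and -0.26 in HCT116, EDEM1 by -0.08 in Caco-2 cells and -0.33 in HCT116 and DERL3, a stress-induced derlin, by -0.39 in Caco-2 cells and -0.16 in HCT116. HERPUD1, a scaffold of the SYVN1 complex, stood at 0.004 in Caco-2 cells and -0.25 in HCT116, and SEL1L, the partner of SYVN1, at 0.16 in Caco-2 cells and -0.19 in HCT116. EDEM3 was the exception in HCT116 at 0.28, and at 0.77 with the other of its probe sets that was bright on both HCT116 arrays.

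Of the 3 channel genes, 2 had a value. SEC61A1, the pore subunit, read 10.64 with control and 10.50 with BORIS siRNA in Caco-2, and 10.46 and 10.01 in HCT116, a difference of -0.14 in Caco-2 cells and -0.45 in HCT116, and all 3 of its probe sets were lower in each line. SEC61B differed by -0.17 in Caco-2 cells and -0.01 in HCT116. Among genes with at least 2 probe sets bright on both arrays of a line, these all had the same sign for 18 of 23 in Caco-2 (13 higher, 5 lower) and for 18 of 24 in HCT116 (7 higher, 11 lower).

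**Figure D3:**
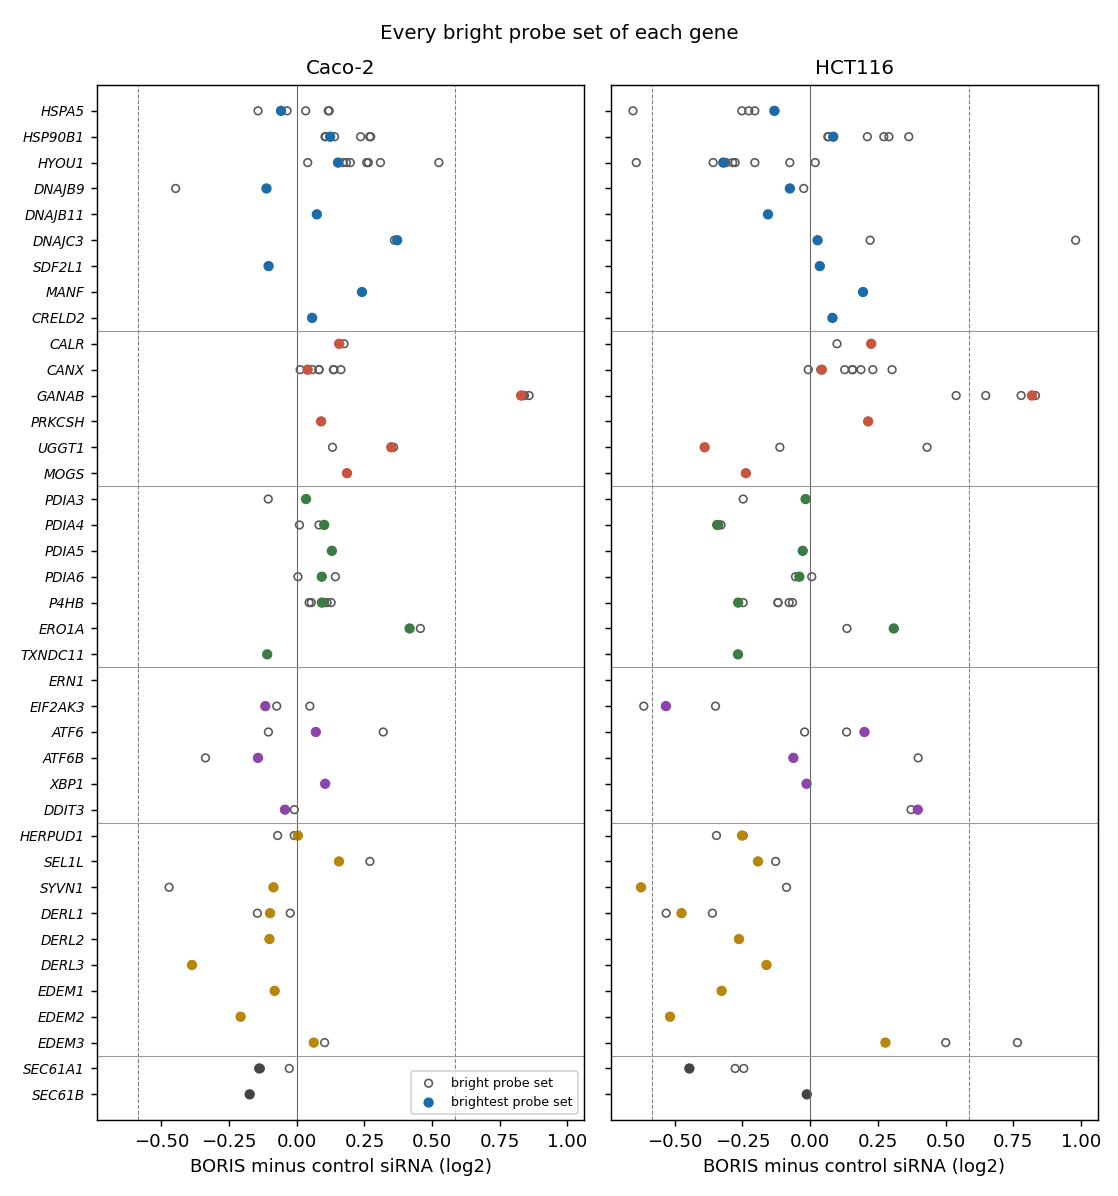
The difference between BORIS and control siRNA (x axis, log2) in Caco-2 (left) and HCT116 (right) for each gene (rows): filled points are the brightest probe set, coloured by role, open circles the gene's other probe sets that were bright on at least 1 of the 2 arrays, and dashed lines 1.5-fold. The 5 GANAB probe sets lie between 0.83 and 0.86 in Caco-2 and between 0.54 and 0.83 in HCT116, and in HCT116 most points of the ER-associated degradation genes lie left of 0, apart from EDEM3.

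The comparison of the lines asked whether Caco-2 and HCT116 differ in these genes whatever the siRNA. In the same limma fit, with siRNA as a block, 10 of the 38 tested genes (26.3%) passed an adjusted p of 0.05, beside 39.2% of all 11165 genes (19.4% higher and 19.8% lower in HCT116). Of the 10, 7 were lower in HCT116 and 3 higher. The 2 arrays of a line, which differ in siRNA, stand in for replicates here, so the p-values measure the disagreement of the siRNA difference between lines and not the spread between cultures.

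XBP1, the transcription factor of secretory cells and of the IRE1 arm, was the gene that differed most. It read 11.62 with control and 11.73 with BORIS siRNA in Caco-2, and 9.82 and 9.81 in HCT116, so that both HCT116 arrays lay below both Caco-2 arrays. The difference HCT116 minus Caco-2 was -1.86 ± 0.14 (SE, limma adjusted p = 1.67e-04), or 3.63-fold. EDEM1, a known target of spliced XBP1, read 8.62 with control and 8.54 with BORIS siRNA in Caco-2, and 7.26 and 6.94 in HCT116 and was lower in HCT116, at -1.48 ± 0.18 (SE, limma adjusted p = 0.00142). Its other 4 probe sets were dim on all 4 arrays. MOGS was lower, at -1.02 ± 0.20 (SE, limma adjusted p = 0.00792), and so was PDIA6, at -0.95 ± 0.13 (SE, limma adjusted p = 0.00187), with all 3 PDIA6 probe sets between -0.99 and -0.91. ATF6B was lower too, at -0.77 ± 0.19 (SE, limma adjusted p = 0.0198), as were the J-domain cochaperone DNAJB11, at -0.71 ± 0.14 (SE, limma adjusted p = 0.00907), and GANAB, at -0.61 ± 0.16 (SE, limma adjusted p = 0.0265).

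The 3 genes higher in HCT116 were SDF2L1, by 0.79 ± 0.16 (SE, limma adjusted p = 0.0101), DNAJB9, by 0.55 ± 0.16 (SE, limma adjusted p = 0.0372), and MANF, by 0.52 ± 0.13 (SE, limma adjusted p = 0.0191). SDF2L1 read 9.36 with control and 9.25 with BORIS siRNA in Caco-2, and 10.08 and 10.11 in HCT116. Genes known to be induced by ER stress stood on both sides: XBP1, EDEM1, PDIA6 and DNAJB11 were lower in HCT116 and SDF2L1, DNAJB9 and MANF higher. HSPA5 and HSP90B1 differed between lines by -0.08 ± 0.09 (SE, limma adjusted p = 0.532) and 0.17 ± 0.09 (SE, limma adjusted p = 0.182), and HYOU1 by 0.02 ± 0.18 (SE, limma adjusted p = 0.952), none past the threshold. Of the 9 bright HYOU1 probe sets, 8 were lower in HCT116, at down to -0.37, and the brightest, used here, was the 1 that was not. Of the secretory lineage markers, SPDEF, expressed in both lines, was lower in HCT116 too, by -1.98 (limma adjusted p = 4.62e-04). AGR2, itself an ER disulfide isomerase, AGR3 and REG4 passed the expression filter only through Caco-2, where they are high. Their lower values in HCT116 therefore lend no support. SPINK4, above background on both HCT116 arrays, passed the filter in neither line. The part of these markers in the differences was not tested.

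The line calls were compared over 9 settings. XBP1, PDIA6, DNAJB11, SDF2L1 and GANAB were called in all 9 settings, EDEM1, MOGS and ATF6B in all 8 in which they were tested, and MANF in 8 of 9, where without the trend on mean expression its limma adjusted p was 0.0622. DNAJB9 was called in 5 of 8. PDIA4 and SYVN1, at limma adjusted p of 0.0602 and 0.0619, were called in 4 and 3 of 9, and HSPA5, DERL1 and ATF6 in 1 of 9 each. HSPA5 stood at -0.48 (limma adjusted p = 0.0214) when its _s_at and _x_at probe sets were set aside. Of its 6 probe sets, 5 were lower in HCT116 and 1 higher.

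**Figure D4:**
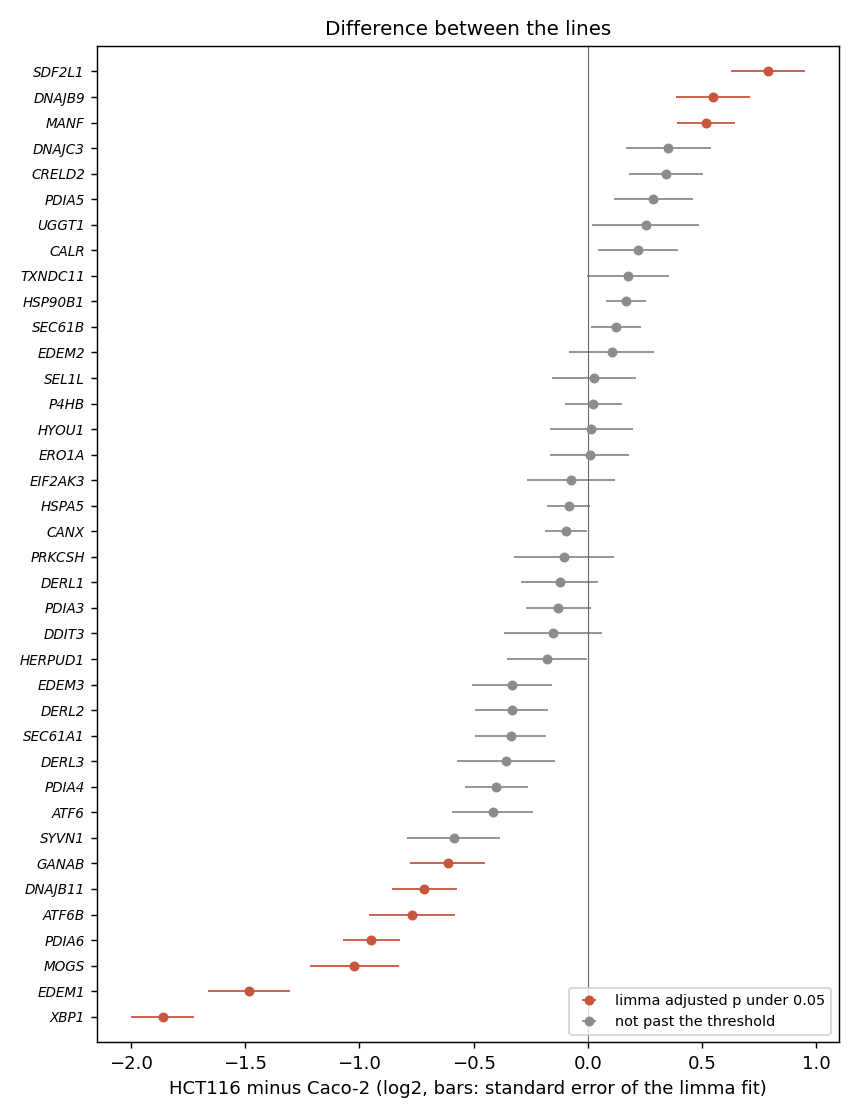
The difference HCT116 minus Caco-2 (x axis, log2) of the 38 tested genes, ordered by size, as the limma estimate over 4 arrays with its standard error (bars); red marks an adjusted p under 0.05. XBP1 at -1.86 and EDEM1 at -1.48 stand at the lower end, SDF2L1 at 0.79 at the upper end, and 28 genes are grey.

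The wider ER pathway was described with 9 further lists. Together they held 168 genes, of which 153 were expressed in each line. At 1.5-fold, 3 were higher and 3 lower in Caco-2 and 9 and 10 in HCT116, which is 3.92% and 12.4% beside 3.92% and 13.5% of all expressed genes, and the medians were -0.0092 and -0.032. None passed the limma test of a shared siRNA effect, as no tested gene did (smallest adjusted p 0.769, also the smallest over all genes). Of the 157 tested, 12 had an unadjusted limma p under 0.05, beside 670 of all 11165 tested genes (6%). In the line test 54 of 157 passed (34.4%, beside 39.2% of all genes), 24 higher and 30 lower in HCT116.

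Among other ER folding factors, 19 of 29 were higher in Caco-2 and 20 of 29 in HCT116, with a median of 0.11 in each line. Of all expressed genes, 50.5% were higher and 49.4% lower in Caco-2, and 44.5% and 55.4% in HCT116. MESD, a chaperone of LDL receptor family proteins, read 8.24 with control and 9.16 with BORIS siRNA in Caco-2, and 8.02 and 8.98 in HCT116. The peptidyl-prolyl isomerase gene FKBP7 differed by 0.46 in Caco-2 cells and 1.06 in HCT116, and the thioredoxin-like TXNDC12 by 0.26 in Caco-2 cells and 0.86 in HCT116. ER-associated degradation genes outside the main set were lower in 13 of 18 cases in Caco-2 and 14 of 20 in HCT116 (medians -0.068 and -0.097), with UBE2J2, a ubiquitin-conjugating enzyme of the ER membrane, at -0.23 in Caco-2 cells and -0.66 in HCT116 and NPLOC4, a VCP cofactor, at -0.02 in Caco-2 cells and -0.56 in HCT116. FBXO2, a glycoprotein-binding F-box gene, was at background with BORIS siRNA in Caco-2 and lower there by at least 0.97, and stood at 0.16 in HCT116. In Caco-2 it passed the expression filter only through the control array, where it was the higher, and is among the 13 counted as lower.

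Genes of ER export and retrieval were lower in 14 of 21 cases in Caco-2 and 17 of 21 in HCT116 (medians -0.025 and -0.23). Of all expressed genes, 49.4% were lower in Caco-2 and 55.4% in HCT116. The COPII coat gene SEC24D read 7.08 with control and 6.83 with BORIS siRNA in Caco-2, and 8.02 and 6.80 in HCT116, and SEC16A, which organises ER exit sites, read 9.39 with control and 9.32 with BORIS siRNA in Caco-2, and 8.49 and 7.38 in HCT116. Both were lower at 2-fold in HCT116, where SAR1B, the COPII GTPase, stood at 0.62. In the PERK, ATF4 and CHOP arm 12 of 24 were lower in Caco-2 and 15 of 22 in HCT116 (medians -0.014 and -0.18). CEBPB, a partner of CHOP, differed by -0.30 in Caco-2 cells and -0.79 in HCT116, ATF3 by 0.12 in Caco-2 cells and -0.65 in HCT116 and the sensor kinase EIF2AK4 (GCN2) by 0.66 in Caco-2 cells and -0.34 in HCT116.

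Among regulators of the ATF6 and IRE1 arms, 9 of 15 were higher in Caco-2 and 7 of 14 in HCT116, beside 50.5% and 44.5% of all expressed genes. NFYB and NFYC encode subunits of NF-Y, the factor known to bind CCAAT in ER stress response elements, and had values of opposite sign. NFYB read 7.55 with control and 7.91 with BORIS siRNA in Caco-2, and 8.06 and 9.19 in HCT116, higher with BORIS siRNA by 0.36 in Caco-2 cells and 1.13 in HCT116. NFYC read 8.21 with control and 7.59 with BORIS siRNA in Caco-2, and 7.91 and 6.89 in HCT116, a difference of -0.62 in Caco-2 cells and -1.02 in HCT116. Both passed 2-fold in HCT116, and their limma adjusted p for the shared effect was 0.769. CREB3L4, a membrane-bound relative of ATF6, stood at 0.10 in Caco-2 cells and 0.90 in HCT116. In HCT116 it read 5.26 with control and 6.16 with BORIS siRNA and passed the expression filter only through the latter array. It is among the 7 counted as higher there.

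For translocation accessory and SRP genes the median was -0.036 in Caco-2 cells and 0.077 in HCT116, with TRAM2 at -0.73 and TMCO1 and SRP19 at 0.53 and 0.45 in HCT116. Signal peptidase genes had medians of -0.028 and 0.26, with SEC11C at 0.40, SEC11A at 0.39 and SPCS2 at 0.26 in HCT116, and oligosaccharyltransferase genes -0.0011 and 0.15, with OSTC at 0.22 in Caco-2 cells and 0.51 in HCT116. N-glycan precursor genes had medians of -0.081 and -0.037, and in HCT116 ALG6 stood at 0.59, ALG8 at 0.55 and ALG9 at -0.62. Outside the ER, cytosolic and mitochondrial chaperones had medians of -0.022 and 0.019, and BAG3 and HSPB1, both induced by heat shock, stood at -0.71 and -0.54 in HCT116.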

How the data were processed

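Per the labels' protocols, TRIzol RNA was made into biotinylated cRNA with a 3' IVT PLUS kit. Each deposited value is the log2 signal of a probe set, as its range shows. How the authors corrected background, normalized and summarised is not given in any source used here. Of 49395 probe sets, 44988 were paired with 1 gene in the platform's annotation table, 1832 with several, 2473 with none and 102 were controls; symbols looked up by Entrez ID in RefSeq (GRCh38.p14) changed for 0. The 41 genes and all lists were chosen with earlier results of these data known. All 41 genes were to be described, and of each further list up to 3 expressed genes with the largest absolute difference between siRNAs in either line. Tests used limma 3.58.1 in R 4.3.3 (lmFit, eBayes with trend, Benjamini-Hochberg adjustment over 11165 genes). Checked on 10 simulated sets of 11165 genes with 200 changed, the line test recovered 51% of 2-fold and 97.9% of 4-fold changes, with 12.5% of calls false. The shared-effect test recovered 52.3% and 99.3%, with 11.7% false. The simulated noise was independent between genes and arrays and all changes were upward, while the line test here called 39.2% of genes. These rates therefore need not hold for these data. Alternatives were the mean of all probe sets, leaving out _x_at and _s_at probe sets, no filter, a filter at background, quantile normalization, loess (span 0.3), 16 added on the linear scale, and no trend. The number of arrays limits the precision.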

Additional observations from a re-analysis of the deposited data

Results flagged for a closer look

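The poly-A spike-in controls, which report on labelling and not on the cells, were higher by 0.89 (12 probe sets, 0.62 to 1.43) in HCT116 cells with BORIS siRNA than with control siRNA, and by -0.05 (-0.40 to 0.18) in Caco-2. They were singled out because this signal lies outside the measured genes and above its level on the control array. The hybridisation controls, added after labelling, differed by 0.34 and -0.01.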

How the results depend on the processing

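In HCT116 the number of genes at 1.5-fold or more, 2 as deposited, was 1 after quantile normalization, 1 after the loess correction and 1 with 16 added, in each case GANAB alone, and 3 once _s_at and _x_at probe sets were set aside (GANAB, SYVN1 and EIF2AK3). With the mean of all probe sets it was GANAB and EDEM3. For the shared effect, 0 genes of the set as deposited became 1 after quantile normalization and 1 after the loess correction, GANAB in both. Its fitted difference stayed at 0.82 to 0.84 and its SE was larger, while the prior degrees of freedom rose from 5.49 to 651 and 55.7. The 2 calls are therefore no sign of a clearer difference. Why the prior degrees of freedom rose was not tested. In Caco-2, GANAB was the 1 gene at 1.5-fold in all 8 settings, although its value is the same in several of them. The medians kept their sign, at 0.033 to 0.083 in Caco-2 and -0.117 to -0.013 in HCT116. As means of all probe sets, 18 of 33 genes (54.5%) were lower in HCT116, beside 55.4% of all genes. Over the alternatives, 499 of 514 values of a gene in a line moved by less than the limma standard error and 15 by more, none of them changing the sign of a value at 1.5-fold. Many of these could not move. With no filter and with a filter at background, at 76 values each, only the choice of tested genes changes. With _s_at and _x_at probe sets set aside, a gene whose brightest probe set was kept has the same value. Of 295 line differences, 281 kept their call, 10 gained it and 4 lost it. With 1 array per group no array could be left out of the fit, which then has no residual degree of freedom. The shared-effect fit pairs the siRNAs within each line; no further replicate block was possible, because the labels give no replicate numbers.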
